A study of Mus musculus with 16 samples.

Results

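The genes Pou5f1, Sox2, Nanog, Sall4, Utf1, Dppa2, Dppa4 and Dppa5a were followed across 16 bulk RNA sequencing libraries of mouse pluripotent stem cells. They were taken by symbol from a table of raw counts, as 8 of its 34042 rows. Formative stem cells, labelled mFS and written FS here, were grown in A3XR medium and gave 6 libraries: line 5ar1 at passages 10, 12 and 14, and line 5ar3 at passages 4, 5 and 12. Epiblast stem cells gave 3 libraries of line AF32 in AF medium at passages 13, 14 and 15 (EpiSC_AF) and 3 libraries of line AFX6 in AFX medium at passages 5, 8 and 12 (EpiSC_AFX). The 4 embryonic stem cell (ES) libraries came from E14IV-C cells kept in 2iL medium, at passages 12, 13, 15 and 20. Values listed for EpiSC_AFX follow replicates 1 to 3, which are passages 12, 5 and 8. The labels name no genetic change in any line. Replicates were passages of a line, so p-values measure only the spread between these samples. Outside FS each medium was represented by a single line, so line and medium cannot be told apart there.

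Pou5f1 encodes OCT4, a POU-domain factor that binds DNA together with the HMG-box factor SOX2 at composite octamer and SOX sites. Together with the homeobox factor NANOG, and with the zinc finger protein SALL4, they sit at the centre of the network that holds mouse pluripotent cells undifferentiated. Utf1 encodes a chromatin-associated protein and is a long-known target of OCT4 and SOX2. Dppa2 and Dppa4 encode SAP-domain proteins that act as a pair at bivalent CpG-rich promoters, and Dppa5a encodes a KH-domain RNA-binding protein of early embryos and ES cells. Naive ES cells correspond to the preimplantation epiblast, and EpiSCs to the later epiblast. Formative cells are described as a stage between them, which is why the levels of shared and stage-restricted factors in FS are of interest.

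Libraries held 22069338 to 33290250 counts. The marker lists went with the labels: the summed level of 5 naive markers (Esrrb, Klf4, Tfcp2l1, Zfp42 and Tbx3) was 2169 to 3414 CPM (counts of a gene per 1e+06 counts of its library, with library sizes scaled by edgeR's TMM) in ES and at most 12.6 CPM in each other library. The summed level of the 4 primed or formative markers Otx2, Fgf5, Pou3f1 and Dnmt3b was 834 to 2246 CPM in FS and 39.6 to 103 CPM in ES. The EpiSC_AF libraries had the highest sums for 5 primitive streak markers, at 112 to 300 CPM against 14.6 to 48.0 CPM in FS and EpiSC_AFX. The same held for 5 endoderm markers, at 57.8 to 170 CPM against at most 5.56 CPM in FS, 37.6 CPM in EpiSC_AFX and 2.08 CPM in ES, and for 6 fibroblast markers, at 31.8 to 78.1 CPM against at most 17.5 CPM elsewhere. ES replicate 1 stood apart, with 38.1% of its counts on the mitochondrial rRNA gene mt-Rnr2 against 9.96% to 25.0% in the other libraries.

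RefSeq promoter windows on GRCm38.p6 were matched for 4 of the 8 genes, and are shown because 2 of these genes, Sox2 and Nanog, were called lower in each other medium than in ES, while Pou5f1 was not called and Utf1 was called higher in FS and EpiSC_AFX. Windows of 250 bases upstream of a RefSeq start were searched on both strands for the octamer ATGCAAA, the SOX motif ACAATG, the composite of CATTGT, 1 further base and ATGCAAA, the GC box GGGCGG and the TATA motif TATAAA. Capitals mark the matches. The sequences run 5′ to 3′ on the plus strand, and where GENCODE places the start of the gene further upstream the printed stretch ends before it. They lie at chr17:35505782-35506017 for Pou5f1, chr3:34649745-34649994 for Sox2, chr6:122707239-122707488 for Nanog and chr7:139943606-139943788 for Utf1.
Pou5f1: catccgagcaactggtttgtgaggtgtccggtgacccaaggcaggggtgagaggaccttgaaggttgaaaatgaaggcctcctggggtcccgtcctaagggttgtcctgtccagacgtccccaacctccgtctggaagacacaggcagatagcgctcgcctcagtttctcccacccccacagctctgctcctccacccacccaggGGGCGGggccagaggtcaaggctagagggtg
Sox2: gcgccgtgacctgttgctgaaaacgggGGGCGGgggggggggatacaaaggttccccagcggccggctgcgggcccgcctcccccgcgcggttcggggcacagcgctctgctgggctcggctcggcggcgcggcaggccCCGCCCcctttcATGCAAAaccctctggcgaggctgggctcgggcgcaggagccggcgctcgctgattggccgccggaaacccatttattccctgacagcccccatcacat
Nanog: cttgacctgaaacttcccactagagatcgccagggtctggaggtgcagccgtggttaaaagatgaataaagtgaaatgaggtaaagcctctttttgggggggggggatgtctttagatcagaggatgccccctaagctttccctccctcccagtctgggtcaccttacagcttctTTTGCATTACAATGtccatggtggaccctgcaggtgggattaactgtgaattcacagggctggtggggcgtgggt
Utf1: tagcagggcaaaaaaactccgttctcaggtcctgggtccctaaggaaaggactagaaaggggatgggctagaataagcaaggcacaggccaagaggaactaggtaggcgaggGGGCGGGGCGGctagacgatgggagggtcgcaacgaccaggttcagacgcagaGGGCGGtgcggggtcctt
The Nanog window held the composite on the minus strand, beginning 75 bases before the start, and its octamer and SOX parts are the same bases counted again. Of 32851 promoter windows of this length, 2 held the composite (0.00609%), 4.12% the octamer and 10.7% the SOX motif. Sox2 had an octamer 99 bases before the start and 2 GC boxes. Pou5f1 had 1 GC box, and Utf1 had 4 in the whole window, of which 3 fall in the printed stretch and a pair of these overlap. The GC box was found in 32.7% of all windows, and the TATA motif, in 12.4% of all windows, in none of these 4.

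The genes formed 3 patterns. Dppa2, Dppa4 and Dppa5a were close to absent outside ES, Sox2 and Nanog were reduced but present, and Pou5f1 and Sall4 were not called between any medium and ES, while Utf1 rose in FS and EpiSC_AFX. A gene was called when edgeR's quasi-likelihood test gave a Benjamini-Hochberg adjusted p under 0.05 over the 18555 genes tested. Against ES, 6 of the 8 genes were called in FS, with 1 higher and 5 lower, where 62.8% of all genes tested were called (32.9% higher, 29.9% lower). In EpiSC_AFX 6 were called, 1 higher and 5 lower, against 54.7% of all genes (28.5% higher, 26.2% lower). In EpiSC_AF 5 were called, all lower, against 56.7% of all genes (29.7% higher, 27.0% lower). The median log2 fold change of the 8 genes against ES was -2.08 in FS, -2.18 in EpiSC_AFX and -2.32 in EpiSC_AF, while the median of all genes tested lay between 0.01 and 0.04. These comparisons share the ES libraries, so their likeness is not a separate observation. Dppa2, Dppa4 and Dppa5a passed edgeR's filter on low counts through ES alone. The counts of lower genes and the medians are therefore no support for a trend of the 8 genes. Among the other media, 0 of 8 were called between FS and EpiSC_AFX, where 5.00% of all genes were called (2.89% higher in FS, 2.10% lower). Between FS and EpiSC_AF 2 were called, 1 in each direction, against 16.6% of all genes (7.84% higher in FS, 8.81% lower). Between EpiSC_AFX and EpiSC_AF 0 were called, against 4.26% of all genes (1.43% higher in EpiSC_AFX, 2.83% lower). The 3 Dppa genes, at 0 to 27 counts a library outside ES, are among the 8 in these counts. When only the groups compared were fitted, 5 of the 8 passed the filter on low counts. At an unadjusted p under 0.05, edgeR gave 3 of 8 for FS against EpiSC_AFX, where 18.4% of all genes had one, and 1 of 8 for EpiSC_AFX against EpiSC_AF, where 17.5% had one. DESeq2 called 1 and 0 of the 8 in these comparisons. Pou5f1, Sox2 and Utf1 were higher in EpiSC_AFX than in EpiSC_AF (log2 changes 0.58, 0.56 and 1.66) and Sall4 lower (-0.55), each with an edgeR adjusted p of at least 0.194. For these genes the libraries of EpiSC_AFX and EpiSC_AF did not overlap. How often that held over all genes was not computed, so it is no feature of these genes. When only the EpiSC_AFX and EpiSC_AF libraries were fitted, Pou5f1, Sall4 and Utf1 were called among the 5 of the 8 genes tested. That fit called 2276 genes, against 791 in the main fit.

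**Figure D1:**
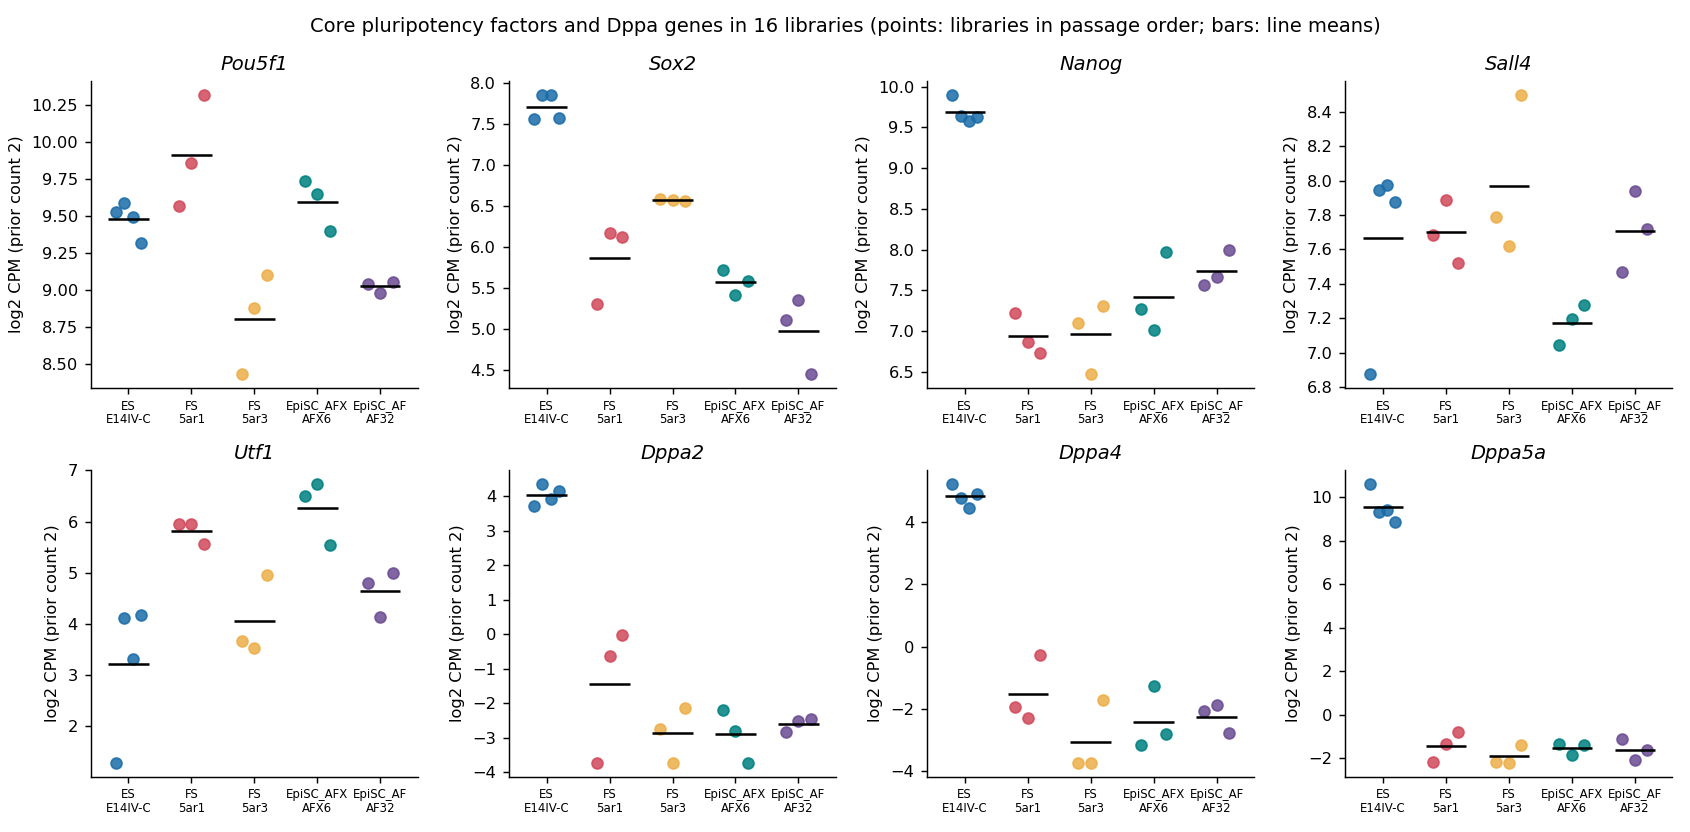
Log2 CPM (prior count 2) of each gene, with libraries as points in passage order within a line and line means as bars. The 4 ES libraries lie above all 12 others for Sox2, Nanog and the Dppa genes. The lines 5ar1 and 5ar3 separate for Pou5f1, Sox2 and Utf1, of which only Pou5f1 was called between them. How often such separation holds over all genes was not computed.

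**Figure D2:**
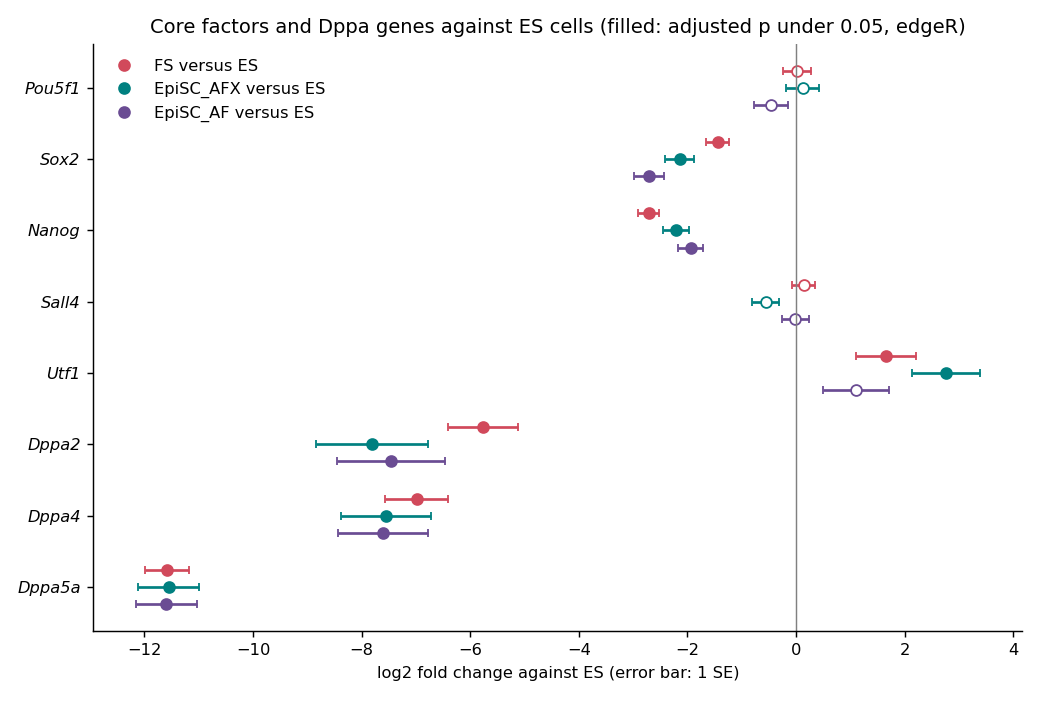
Log2 fold change of each gene against ES with 1 SE on each side, for FS, EpiSC_AFX and EpiSC_AF. Filled points passed an adjusted p under 0.05 in edgeR; Dppa5a lies near -11.6 in all 3 comparisons, and the points of Pou5f1 and Sall4 are open in each.

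Levels per kilobase of exon, which allow genes to be compared with each other, were highest for Pou5f1 outside ES. In FS its mean was 321 CPM per kb, followed by Nanog at 56.1, Sall4 at 42.3, Sox2 at 37.7 and Utf1 at 30.6 CPM per kb. In ES the order differed, with Dppa5a at 1360 CPM per kb above Nanog at 369, Pou5f1 at 319, Sox2 at 102 and Sall4 at 38.4. Dppa4 at 17.4, Utf1 at 9.64 and Dppa2 at 6.76 CPM per kb were the lowest in ES. In FS the Dppa genes were the lowest, at 0.422 CPM per kb for Dppa5a, 0.129 for Dppa4 and 0.117 for Dppa2.

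Pou5f1 (ENSMUSG00000024406, chr17:35506018-35510772 on GRCm38, plus strand, 6 exon blocks) was at 737, 770, 722 and 637 CPM in ES replicates 1 to 4. The FS libraries ranged from 345 to 1279 CPM with a median of 654 CPM, on both sides of the ES values. EpiSC_AFX replicates 1 to 3 were at 676, 856 and 805 CPM, and EpiSC_AF replicates 1 to 3 at 528, 506 and 532 CPM, below every ES library. FS against ES gave a log2 change of 0.01 (SE 0.26, edgeR adjusted p 0.972), an interval of 2 SE that runs from -0.50 to 0.53. The estimate joined FS lines that went opposite ways: line 5ar1 alone gave 0.45 (edgeR adjusted p 0.0217) and line 5ar3 alone -0.65 (edgeR adjusted p 0.00217). EpiSC_AF against ES gave -0.46 (SE 0.31, edgeR adjusted p 0.215), and was called with 1 mean per line (adjusted p 0.0354) and when only those groups were fitted (adjusted p 0.0175). FS against EpiSC_AF gave 0.47 (edgeR adjusted p 0.298), which became 0.91 for 5ar1 alone (edgeR adjusted p 0.00191) but -0.19 for 5ar3 alone (edgeR adjusted p 0.463). EpiSC_AFX against ES gave 0.12 (SE 0.30, edgeR adjusted p 0.760). An antisense gene, Gm19553, shares 317 exonic bases with Pou5f1, and the strand setting of the counting is not given.

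Sox2 (ENSMUSG00000074637, chr3:34650405-34652461, plus strand, a single exon) was at 189, 231, 231 and 190 CPM in ES. In FS it was at 39.3, 71.6 and 69.2 CPM in line 5ar1 (passages 10, 12 and 14) and at 96.2, 95.0 and 94.2 CPM in line 5ar3 (passages 4, 5 and 12). EpiSC_AFX had 47.8, 52.6 and 42.3 CPM and EpiSC_AF 34.3, 40.9 and 21.8 CPM. No other library reached the lowest ES value. Sox2 fell 2.71-fold in FS (log2 fold change -1.44, SE 0.21, edgeR adjusted p 1.30e-05), 4.42-fold in EpiSC_AFX (-2.15, SE 0.27, edgeR adjusted p 3.69e-06) and 6.52-fold in EpiSC_AF (-2.70, SE 0.28, edgeR adjusted p 3.24e-07). The level in FS was above that in EpiSC_AF, by a log2 change of 1.26 (SE 0.25, edgeR adjusted p 0.00192), although FS replicate 1 lay inside the EpiSC_AF range. Against EpiSC_AFX it was 0.71 (SE 0.24, edgeR adjusted p 0.108), and was called with line 5ar3 alone (1.01, adjusted p 0.00375), with 1 mean per line (0.67, adjusted p 0.0481) and without FS replicate 1 (0.84, adjusted p 0.0167). Sox2 lies within the long noncoding gene Sox2ot on the same strand and shares no exonic base with it, and the Sox2ot row held 18 to 97 counts a library.

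Nanog (ENSMUSG00000012396, chr6:122707489-122714633, plus strand, 5 exon blocks) was at 955, 798, 764 and 791 CPM in ES. FS ranged from 88.8 to 158 CPM with a median of 127 CPM. EpiSC_AFX replicates were at 250, 155 and 129 CPM and EpiSC_AF replicates at 189, 202 and 255 CPM, so FS lay below every EpiSC_AF library and overlapped EpiSC_AFX. The fall against ES was 6.57-fold in FS (log2 fold change -2.72, SE 0.19, edgeR adjusted p 1.30e-09), 4.64-fold in EpiSC_AFX (-2.21, SE 0.24, edgeR adjusted p 5.03e-07) and 3.84-fold in EpiSC_AF (-1.94, SE 0.23, edgeR adjusted p 1.93e-06). Nanog was lower in FS than in EpiSC_AF by 1.71-fold (log2 fold change -0.77, SE 0.20, edgeR adjusted p 0.0120). That call was lost with total counts as the only scaling (adjusted p 0.0750), with passage as a covariate (0.0617) and without EpiSC_AF replicate 3 (-0.63, 0.0867). The EpiSC_AF libraries also had the raised sums of streak, endoderm and fibroblast markers given above, whose part in this difference was not tested. Against EpiSC_AFX, FS gave -0.50 (SE 0.20, edgeR adjusted p 0.173). Sox2 was lowest in EpiSC_AF while Nanog was lowest in FS. The transcripts of 41 other genes matched Nanog at 90% identity or more over at least 200 bases, and Nanog-ps1 had 0 counts in every library.

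Sall4 (ENSMUSG00000027547, chr2:168748332-168767943, minus strand, 7 exon blocks) was at 117, 246, 252 and 235 CPM in ES, with replicate 1, the library rich in mitochondrial rRNA, apart from the rest. The FS libraries ranged from 184 to 361 CPM with a median of 214 CPM. EpiSC_AF had 177, 245 and 211 CPM, and EpiSC_AFX 155, 132 and 147 CPM, below every FS library. FS against ES gave a log2 change of 0.14 (SE 0.21, edgeR adjusted p 0.575), and FS against EpiSC_AFX 0.70 (SE 0.23, edgeR adjusted p 0.102), which passed in DESeq2 (adjusted p 0.0480). EpiSC_AFX against ES gave -0.56 (SE 0.25, edgeR adjusted p 0.0681), and without ES replicate 1 this was called (-0.75, edgeR adjusted p 0.00625). EpiSC_AF against ES was -0.01 (SE 0.25, edgeR adjusted p 0.976). The antisense gene Gm14261 shares 526 exonic bases with Sall4.

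Utf1 (ENSMUSG00000047751, chr7:139943789-139945112, plus strand, 2 exon blocks) was the only one of the 8 genes to rise against ES. It was at 2.35, 17.3, 9.80 and 17.9 CPM in ES, and at 46.3, 90.05 and 107 CPM in EpiSC_AFX (passages 12, 5 and 8), which did not overlap. In FS it was at 61.9, 61.5 and 46.9 CPM in line 5ar1 and at 12.6, 11.4 and 30.8 CPM in line 5ar3 (passages 4, 5 and 12), so that part of line 5ar3 lay inside the ES range. EpiSC_AF had 27.9, 17.3 and 31.7 CPM. The rise was 6.80-fold in EpiSC_AFX (log2 fold change 2.76, SE 0.63, edgeR adjusted p 0.00145) and 3.15-fold in FS (1.66, SE 0.55, edgeR adjusted p 0.0157). In FS the call was lost with line 5ar3 alone (0.63, edgeR adjusted p 0.320) and without the filter on low counts (1.67, edgeR adjusted p 0.0507). EpiSC_AF against ES gave 1.1 (SE 0.61, edgeR adjusted p 0.137). FS against EpiSC_AFX gave -1.11 (SE 0.54, edgeR adjusted p 0.293) and against EpiSC_AF 0.55 (SE 0.58, edgeR adjusted p 0.576).

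The neighbouring genes Dppa2 and Dppa4 were both near the detection limit outside ES. Dppa4 (ENSMUSG00000058550, chr16:48283733-48294237, plus strand, 7 exon blocks) lies 9.67 kb upstream of Dppa2 (ENSMUSG00000072419, chr16:48303908-48319723, plus strand, 8 exon blocks), with no gene of the annotation between them. Dppa2 had 188, 453, 329 and 417 counts in ES, or 13, 20.5, 15 and 17.7 CPM. Dppa4 had 539, 604, 473 and 693 counts in ES, or 37.2, 27.3, 21.6 and 29.5 CPM. In FS the counts of Dppa2 were 0, 18 and 27 in line 5ar1 (passages 10, 12 and 14) and 2, 0 and 4 in line 5ar3 (passages 4, 5 and 12). Those of Dppa4 were 5, 4 and 22 in line 5ar1 and 0, 0 and 6 in line 5ar3. Most Dppa2 counts in FS thus came from 2 libraries, passages 12 and 14 of line 5ar1, with 45 of the 51. Of the 37 Dppa4 counts in FS, 22 came from passage 14 of line 5ar1 alone. EpiSC_AFX had 0, 4 and 2 counts of Dppa2 and 2, 1 and 10 of Dppa4, and EpiSC_AF had 2, 3 and 3 of Dppa2 and 5, 6 and 2 of Dppa4. A count of 0 in FS replicate 1 allows up to 0.128 CPM of Dppa2 (3 counts of the library total, counting error only).

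Against ES, Dppa2 fell, with a log2 change of -5.76 in FS (SE 0.65, edgeR adjusted p 6.08e-07), -7.81 in EpiSC_AFX (SE 1.03, edgeR adjusted p 5.80e-06) and -7.46 in EpiSC_AF (SE 0.99, edgeR adjusted p 6.48e-06). Dppa4 fell, with a log2 change of -6.98 in FS (SE 0.58, edgeR adjusted p 1.53e-08), -7.56 in EpiSC_AFX (SE 0.83, edgeR adjusted p 6.99e-07) and -7.60 in EpiSC_AF (SE 0.83, edgeR adjusted p 6.31e-07). The sizes rest on few counts outside ES, 6 in all for Dppa2 in EpiSC_AFX and 8 in EpiSC_AF, so the SEs are wide, and no fold between those media is given. Processed pseudogenes resemble both genes: Gm9788 matched Dppa2 at 99.3% over 906 bases and had 61 to 123 counts in ES and at most 7 elsewhere, and Gm14058 matched Dppa4 at 99.4% over 532 bases and had 64 to 94 counts in ES and at most 6 elsewhere. Reads could be split between a gene and its copy, and both rows of each pair were high in ES.

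Dppa5a (ENSMUSG00000060461, chr9:78367052-78368177, minus strand, 3 exon blocks) showed the widest range of the 8 genes. It had 22838, 14092, 14951 and 11096 counts in ES, or 1578, 636, 681 and 472 CPM, and 3 to 15 counts in each of the 12 other libraries. FS line 5ar1 had 4, 10 and 15 counts and line 5ar3 had 4, 3 and 8 counts (passages 4, 5 and 12). EpiSC_AFX had 9, 9 and 6 counts and EpiSC_AF 12, 5 and 7 counts. No library outside ES was at 0. The log2 fold change against ES was -11.59 in FS (SE 0.41, edgeR adjusted p 5.62e-13), -11.55 in EpiSC_AFX (SE 0.56, edgeR adjusted p 5.03e-11) and -11.60 in EpiSC_AF (SE 0.56, edgeR adjusted p 4.73e-11). The pseudogene Gm6798, at 95.8% identity over 360 bases, had 1774 to 3825 counts in ES and at most 1 count elsewhere. The longest match was to the protein-coding gene Pigp, at 95.9% identity over 417 bases. Pigp had 111 to 153 counts in ES and up to 466 elsewhere. Whether the few Dppa5a counts outside ES were reads of such a gene was not tested. Fewer cells that express a gene and less RNA in each cell cannot be told apart in these bulk libraries, for Dppa5a or for the other genes.

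Genes linked to DPPA2 and DPPA4 in published work were read from the same fit. Of 12 listed genes, 11 were in the table and 4 passed the filter on low counts: Dppa3, Mael, Syce1 and Hormad1, all called lower in FS, EpiSC_AFX and EpiSC_AF than in ES. They passed the filter through ES alone, so this count is no support for a trend of the list. Dppa3, a maternal factor and germ cell marker, was at 24.2 CPM in ES on average, and Hormad1, a meiotic gene, at 15.4 CPM. Mael and Syce1, which act in the germ line, had means of 1.81 and 7.97 CPM in ES and 0 counts in all 12 other libraries. The 2-cell-stage genes Zscan4c, Zscan4d and Zscan4f had means of 0.210, 0.231 and 0.225 CPM in ES and at most 0.00785 CPM in any other group.

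Ratios between factors were taken as counts per 100 Pou5f1 counts within a library, which do not depend on the scaling between libraries. They do carry differences in Pou5f1 itself, whose mean was 989 CPM in 5ar1, 455 CPM in 5ar3 and 717 CPM in ES. For Sox2 this ratio was 29.4 ± 2.65 in ES (SD, n = 4) and 21.7 ± 5.52 in line 5ar3 (SD, n = 3). It was 6.10 ± 1.39 in line 5ar1, 6.16 ± 0.908 in EpiSC_AFX and 6.22 ± 2.00 in EpiSC_AF (SD, n = 3 each). Lines 5ar1 and 5ar3 did not overlap, at 5.19 to 7.69 and 17.1 to 27.9, and the highest 5ar3 library exceeded the lowest ES library. The mean level of Sox2 itself was 95.2 CPM in 5ar3 and 211 CPM in ES. The Nanog ratio was 116 ± 13 in ES (SD, n = 4), where Nanog counts exceeded Pou5f1 counts in every library, against 13.5 ± 5.75 in line 5ar1 and 41.2 ± 6.21 in EpiSC_AF (SD, n = 3 each). Line 5ar3 at 29.1 ± 10.4 and EpiSC_AFX at 23.7 ± 11.6 (SD, n = 3 each) overlapped each other. The Sall4 ratio was 57.2 ± 13.4 in line 5ar3 and 22.3 ± 6.93 in line 5ar1 (SD, n = 3 each), without overlap, while the CPM of Sall4 overlapped between these lines. The Utf1 ratio was highest in EpiSC_AFX, at 10.2 ± 3.22 (SD, n = 3), and lowest in ES, at 1.68 ± 1.09 (SD, n = 4). These ratios are a description, with no test.

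**Figure D3:**
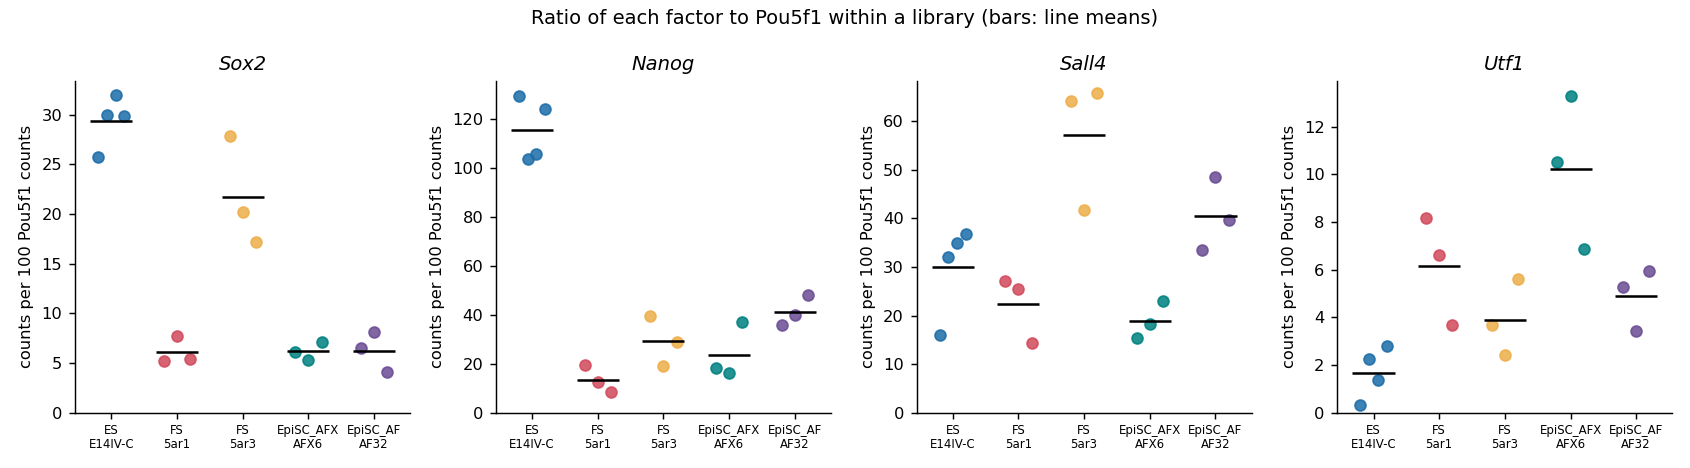
Counts of Sox2, Nanog, Sall4 and Utf1 per 100 Pou5f1 counts in each library, with line means as bars. For Sox2, line 5ar3 at 17.1 to 27.9 lies near ES in this ratio, and line 5ar1 at 5.19 to 7.69 lies with both EpiSC lines. The ratio also carries Pou5f1, at a mean of 455 CPM in 5ar3, 989 CPM in 5ar1 and 717 CPM in ES.

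The FS lines, which share a medium, differed most clearly in Pou5f1. Of the 8 genes 1 was called between 5ar1 and 5ar3, where 3.88% of all genes tested were called (1.86% higher in 5ar1, 2.02% lower). Pou5f1 was at 758, 930 and 1279 CPM in line 5ar1 (passages 10, 12 and 14) and at 345, 470 and 550 CPM in line 5ar3 (passages 4, 5 and 12), a log2 change of 1.12 (SE 0.19, edgeR adjusted p 0.00262). When only these 6 libraries were fitted, the size was 1.11 and the edgeR adjusted p 0.0764, with 5 of the 8 genes tested. That fit called 179 genes, against 720 in the main fit. Sox2 gave -0.66 (SE 0.22, edgeR adjusted p 0.116) and Utf1 1.63 (SE 0.53, edgeR adjusted p 0.107), and in both the lines did not overlap. How often the lines separate over all genes was not computed, so it is no feature of these genes. Without FS replicate 4 the Utf1 difference was called (2.22, edgeR adjusted p 0.0388). Nanog at -0.05 (SE 0.24, edgeR adjusted p 0.948) and Sall4 at -0.31 (SE 0.26, edgeR adjusted p 0.552) overlapped between the lines. Dppa2 gave 2.59 (SE 0.92, edgeR adjusted p 0.142), and 3.12 without FS replicate 1 (edgeR adjusted p 0.0103), and Dppa4 gave 2.08 (SE 0.95, edgeR adjusted p 0.261). The Dppa4 difference was 0.91 without FS replicate 3 and 6.22 without FS replicate 4, neither of which was called.

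Line and passage were partly mixed in FS, since line 5ar1 was sampled at later passages. Within both FS lines the level of Pou5f1 was higher at each later passage sampled. A common slope within the FS lines, fitted after the values had been seen, was 0.09 log2 units a passage for Pou5f1 (SE 0.03, edgeR adjusted p 0.189), 0.64 for Dppa4 (SE 0.17, edgeR adjusted p 0.139) and 0.47 for Dppa2 (SE 0.18, edgeR adjusted p 0.268). None of the 8 genes was called by edgeR, against 0.0485% of all genes tested, and 3 of the 8 had an unadjusted p under 0.05, against 13.9% of all genes. Without FS replicate 4, which leaves line 5ar3 with passages 4 and 5, the Pou5f1 slope was 0.19 (edgeR adjusted p 0.0411). That fit called 1055 genes, against 9 in the main fit. The shared passage 12 gave 930 CPM of Pou5f1 in line 5ar1 and 550 CPM in line 5ar3, with 1 library each and no test. In AFX6 and E14IV-C the highest passage had the lowest Pou5f1 level, at 676 and 637 CPM, and in AF32 it had the highest, at 532 CPM against 528 and 506 CPM.

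**Figure D4:**
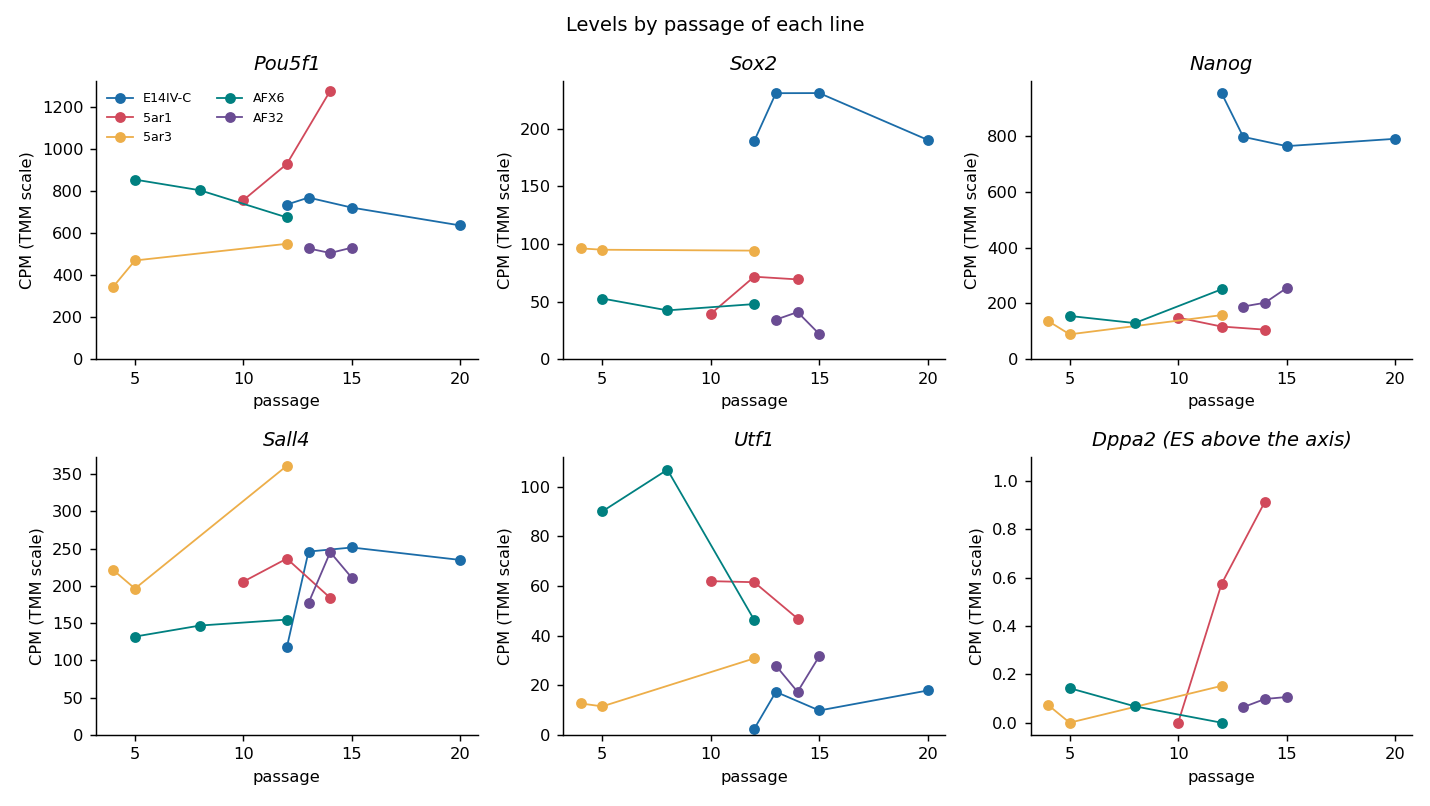
CPM against passage for 6 genes, 1 colour a line, with lines joining the libraries of a cell line and not implying a time course. Pou5f1 in 5ar1 goes from 758 to 1279 CPM between passages 10 and 14, and the Dppa2 panel shows the other groups only, with ES at 13 to 20.5 CPM above its axis.

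Relatives of these factors in the POU, SOX and SALL families differed widely between FS and ES. Of 13 listed relatives, 13 were called between FS and ES, 9 higher and 4 lower (32.9% and 29.9% of all genes), with a median log2 fold change of 3.13 against 0.04 for all genes tested. The calls of Sall1 (-0.91) and Sall3 (-1.52), both lower in FS, were lost with total counts as the only scaling (edgeR adjusted p 0.105 and 0.112) and with line 5ar3 alone (0.0891 and 0.235). Sall3 was also lost without the filter on low counts (edgeR adjusted p 0.114), in DESeq2 (0.0656), with passage as a covariate (0.0908) and with any of FS replicates 1, 2, 3 and 5 or ES replicates 2 and 3 left out (0.0583 to 0.108). Sox11, a neural and epiblast SOXC factor, averaged 1.5 ± 0.543 CPM (SD, n = 4) in ES against 234 ± 84.7 CPM (SD, n = 6) in FS, a log2 change of 7.26 (SE 0.34, edgeR adjusted p 1.12e-11). Pou3f1, which encodes OCT6, a POU factor of the postimplantation epiblast, rose from 0.282 to 30.9 CPM (6.76, SE 0.40, edgeR adjusted p 1.84e-10). Sox3, a SOXB1 factor like Sox2, rose by a log2 change of 5.80 (edgeR adjusted p 3.73e-09) and reached 8.26 CPM in FS. Sox15, which can pair with OCT4, fell, with a log2 change of -5.45 (edgeR adjusted p 9.16e-09). Sall2, named after its values were seen, averaged 4.30 ± 1.66 CPM (SD, n = 4) in ES and 151 ± 22.1 CPM (SD, n = 6) in FS, a log2 change of 5.12 (SE 0.26, edgeR adjusted p 2.70e-11), and was also higher in FS than in EpiSC_AF (1.79, SE 0.24, edgeR adjusted p 6.82e-05). Against EpiSC_AFX Sall2 gave 1.08 (SE 0.23, edgeR adjusted p 0.00997), a call that was lost without EpiSC_AFX replicate 1 (0.90, adjusted p 0.0650) and without EpiSC_AFX replicate 3 (1.04, adjusted p 0.0652).

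In EpiSC_AFX 7 of 13 relatives were higher and 4 lower than in ES, where 28.5% and 26.2% of all genes were, and in EpiSC_AF 7 were higher and 2 lower, where 29.7% and 27.0% of all genes were. Between FS and EpiSC_AFX, where 5.00% of all genes were called, 4 relatives were called, all higher in FS (Sox4, Sall1, Sall2 and Sall3), and each of these was lost under at least 1 alternative. Between FS and EpiSC_AF, where 16.6% of all genes were called, 5 relatives were called, of which 4 were higher, and those of Pou3f2 and Sox3 were lost under at least 1 alternative. Between the FS lines, where 3.88% of all genes were called, 5 relatives were called, 1 higher and 4 lower in 5ar1, and apart from Sox1 these (Sox11, Sox15, Sox21 and Sall3) were each lost under at least 1 alternative. The largest was Sox1, a neuroectoderm factor, at 1.18 ± 0.129 CPM in 5ar1 and 22.9 ± 4.44 CPM in 5ar3 (SD, n = 3 each), a log2 change of -4.27 (SE 0.63, edgeR adjusted p 8.85e-04). Its rise in FS against ES (3.13, SE 1.01, edgeR adjusted p 0.0133) came from 5ar3, since 5ar1 alone gave -0.22 (edgeR adjusted p 0.791), and it was lost with passage as a covariate (2.21, edgeR adjusted p 0.177). The summed level of 4 neuroectoderm markers, Sox1 among them, ranged from 4.24 to 38.8 CPM over the FS libraries, and its part in the Sox2 levels of the lines was not tested.

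**Figure D5:**
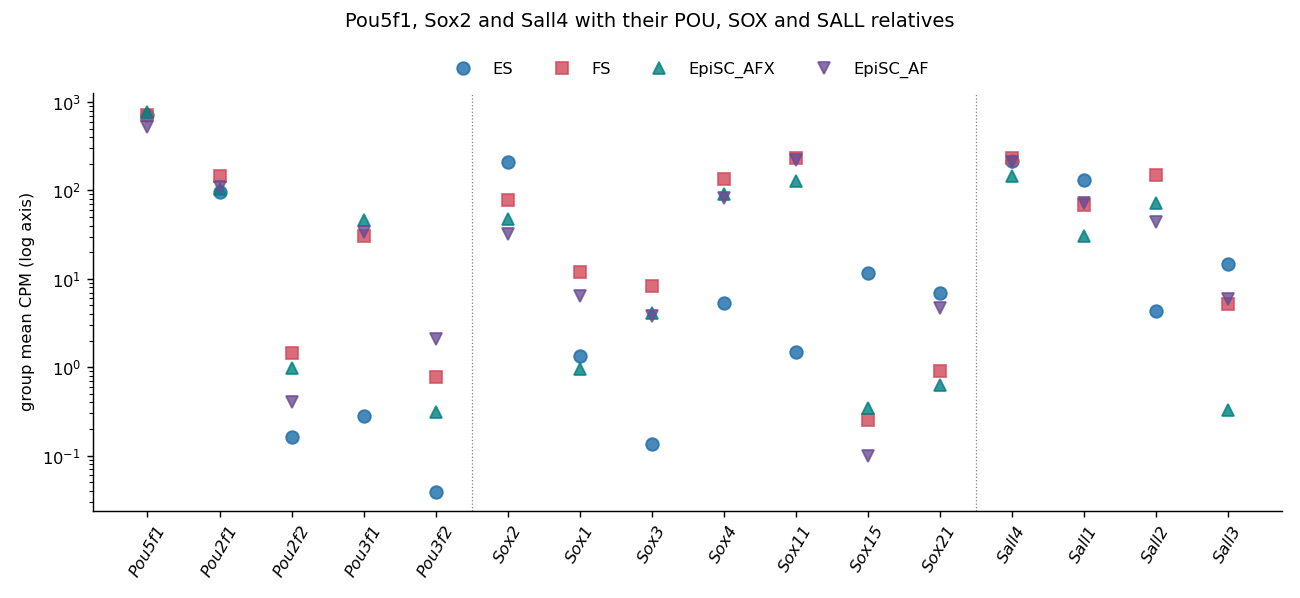
Group mean CPM on a log axis for Pou5f1, Sox2 and Sall4 beside their listed relatives, with dotted lines between the POU, SOX and SALL families. Sox2 is highest in ES, at 211 CPM, while Sox11 (1.5 CPM in ES, 234 CPM in FS) and Sall2 (4.30 CPM in ES, 151 CPM in FS) are lowest there.

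Of 6 listed targets of OCT4 and SOX2, 4 fell and 1 rose in FS against ES (29.9% and 32.9% of all genes), with a median log2 fold change of -4.82. Fbxo15 fell, with a log2 change of -7.66 (edgeR adjusted p 1.66e-09), Lefty2, a Nodal antagonist, with -7.60 (edgeR adjusted p 1.90e-09), Spp1 with -5.78 (edgeR adjusted p 1.65e-07) and Fgf4, the growth factor of the naive epiblast, with -3.86 (edgeR adjusted p 1.43e-05). Otx2, a formative and anterior factor, rose (3.55, edgeR adjusted p 1.55e-09), and Lefty1 gave -1.01 (edgeR adjusted p 0.140). In EpiSC_AFX (26.2% of all genes lower, 28.5% higher) and in EpiSC_AF (27.0% lower, 29.7% higher) 4 fell and 2 rose against ES. Between the FS lines Fgf4 alone of the 6 targets was called, where 3.88% of all genes were called. It was at 29.8 ± 5.84 CPM in 5ar1 and 4.92 ± 1.72 CPM in 5ar3 (SD, n = 3 each), a log2 change of 2.59 (SE 0.33, edgeR adjusted p 2.47e-04). Pou5f1 had the same direction in those lines and Sox2 the opposite one (-0.66), and a link to either was not tested.

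Other pluripotency genes were read from the same fit. All 11 naive factors listed fell in FS against ES (median -8.57), where 29.9% of all genes fell. They also fell in both EpiSC groups, where 26.2% (EpiSC_AFX) and 27.0% (EpiSC_AF) of all genes fell. Zfp42 and Tbx3, at group means of at most 0.121 and 0.211 CPM outside ES, passed the filter on low counts through ES alone. The list was also chosen with earlier results of these data known, so these counts are no support for a trend of it. Of 16 further genes shared by pluripotent states, 4 rose and 5 fell in FS, with a median of 0.09. These counts are near the shares of all genes (32.9% higher, 29.9% lower) and set the list apart in neither direction. Gdf3, a TGF-beta family ligand, fell, with a log2 change of -7.79 (edgeR adjusted p 3.28e-12) and Tdgf1, the Nodal co-receptor, with -4.54 (edgeR adjusted p 2.26e-05). Lin28a, which blocks let-7 maturation, rose from 94.1 to 645 CPM (2.78, edgeR adjusted p 3.99e-08), and the nuclear receptor gene Nr6a1, which encodes GCNF, a repressor of Pou5f1 in differentiating cells, rose from 37.9 to 251 CPM (2.72, edgeR adjusted p 4.36e-10). All 7 primed and formative factors listed rose in FS against ES, where 32.9% of all genes rose, with a median of 3.71. This list too was chosen with earlier results known, and its count is no support for a trend.

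The genes whose log2 CPM followed each of the 8 most closely were taken among 2907 candidates over the 16 libraries, as a description in which the 4 ES libraries weigh heavily. Dppa5a was nearest to Rbmxl2 (Pearson r 0.996), Ooep and Crxos, and Dppa4 to Aim2 (0.986), Tdh and Dhx16, all highest in ES. Dppa2 was nearest to Mtf1 (0.981), Nanog to Epb41l4b (0.977) and Sox2 to Dlgap3 (0.969), again genes with their highest mean in ES. Utf1 was nearest to Fhl3 (0.892), Cdk6 and Lgr4, with their highest means in EpiSC_AFX. Sall4, with the weakest likeness, was nearest to Dock4 (0.799).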

How the data were processed

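Bulk RNA was sequenced from 16 libraries in 4 groups of mouse cells, after Trizol and column extraction and with a directional library kit, per the labels' protocols. The authors deposited raw counts per gene, whole numbers with no normalization. Per the submitters' processing notes the tools were Trim Galore, TopHat2 2.1.0 and featureCounts 1.5.0, with the build mm10. The annotation release, the strand setting and the handling of multi-mapping reads are not given in the sources used here, so overlapping, antisense and near-identical genes are uncertain. A further 6 columns matched no sample and were not used.

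The table was fitted in R 4.3.3 with edgeR 4.0.16: filterByExpr by group, TMM scaling, a robust quasi-likelihood fit with a mean per group over all libraries, and Benjamini-Hochberg adjustment over 18555 genes. The FS lines were compared with a mean per line. CPM is on the TMM scale, and log2 CPM used a prior count of 2. A fold change of the 8 genes was given only where a compared group had a mean of at least 10 counts. SEs come from the fold change and its F statistic. The procedure was tested on simulated data. Alternatives were DESeq2 size factors, total counts, other low-count filters, the DESeq2 1.42.0 Wald test, each library left out, only the groups compared, no mitochondrial rRNA rows, passage as a covariate, single FS lines and a mean per line. The passage slope was added after the data had been seen.

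Positions and exon lengths are from GENCODE M21 on GRCm38 and promoters from RefSeq on GRCm38.p6. Transcripts were searched with blastn for matches of at least 90% identity over 200 bases. The genes and lists were chosen with earlier results of these data known, so counts called from a list are no support for a trend of it. From a list, the 4 genes with the largest absolute change among those called, and any gene not called, could be named. Others were named after their values were seen. The genes most like each of the 8 were the 3 with the highest Pearson correlation of log2 CPM, among genes with a mean of at least 10 CPM and an SD of at least 0.5. The result for Pou5f1 is not reported here. Replicate numbers follow accession order and only name the samples. Within a line, chi-square divided by its degrees of freedom was at least 8.40 for each pair of libraries, so none was counted as a duplicate. Intervals and floors from counts cover counting error only.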

Additional observations from a re-analysis of the deposited data

Results flagged for a closer look

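In 3 of the 16 sets of ES or FS libraries, 2 for each of the 8 genes, 1 library lay far from the rest. The rule used picks about 1 in 20 sets of normal values from 1 population. The FS sets join 2 lines and the sets share libraries, so 3 of 16 cannot be set against that rate. Sall4 was at 361 CPM in FS replicate 4 (line 5ar3, passage 12), and the other FS libraries ranged from 184 to 237 CPM. Sall4 was also at 117 CPM in ES replicate 1, against 235 to 252 CPM in the other ES libraries, and this is the library with 38.1% of its counts on mt-Rnr2. The part of that share in the Sall4 value was not tested. Dppa4 was at 0.745 CPM in FS replicate 3 (line 5ar1, passage 14), or 22 counts, with the other FS libraries between 0 and 0.228 CPM. The same library also had the most Dppa2 and Dppa5a counts of any FS library, at 27 and 15. Pou5f1 differed between the FS lines by a log2 change of 1.12 in edgeR (adjusted p 0.00262), with all 3 libraries of line 5ar1 above all 3 of line 5ar3.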

How the results depend on the processing

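Between each medium and ES the calls of Sox2, Nanog and the 3 Dppa genes held under all alternatives run. The count of the 8 genes called moved there by at most 1: in FS to 5 with no low-count filter and 7 with line 5ar1 alone, in EpiSC_AF to 6 with a mean per line and with only the groups compared, and in EpiSC_AFX to 7 without ES replicate 1. FS against EpiSC_AF gave 1 in place of 2 with total counts only and with passage as a covariate, 3 with line 5ar1 alone (Pou5f1 0.91), and 1 to 2 with a library left out. FS against EpiSC_AFX gave 1 with the DESeq2 Wald test, 1 with a mean per line and 3 with line 5ar3 alone (Pou5f1 -0.77, Sox2 1.01 and Utf1 -2.13), and 0 to 1 with a library left out. EpiSC_AFX against EpiSC_AF gave 3 of 5 tested when only those groups were fitted, where 2276 genes were called in place of 791. Line 5ar1 against 5ar3 gave 2 with the DESeq2 Wald test and 1 to 2 with a library left out. It gave 0 of 5 tested when only these lines were fitted, where 179 genes were called in place of 720. The passage slope gave 0 to 1.

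Small differences changed sign. Sall4 in EpiSC_AF against ES was 0.21 with total counts, 0.025 with no low-count filter, 0.0050 with a mean of at least 1 CPM, 0.035 with passage as a covariate, 0.024 with only those groups, and -0.20 to 0.10 with a library left out. Pou5f1 in FS against ES was -6.05e-05 without mitochondrial rRNA rows, -0.095 with a mean per line, -0.65 with line 5ar3 alone and -0.23 to 0.15 with a library left out. Pou5f1 in FS against EpiSC_AFX was 0.023 with total counts, 0.33 with line 5ar1 alone and -0.35 to 0.035 with a library left out, and against EpiSC_AF -0.19 with line 5ar3 alone. With line 5ar1 alone, Sall4 was -0.031 against ES and -0.021 against EpiSC_AF, and with a library left out -0.058 to 0.23 and -0.016 to 0.27. Utf1 in FS against EpiSC_AF was -0.48 with line 5ar3 alone, and Sox1 in FS against ES -0.22 with line 5ar1 alone. Nanog between the FS lines was -0.27 to 0.12 with a library left out. The cause of these changes was not tested.

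With total counts in place of TMM the median gene moved on the log2 scale from 0.04 to 0.40 in FS, from 0.01 to 0.25 in EpiSC_AFX and from 0.01 to 0.29 in EpiSC_AF against ES, and from 0.04 to 0.16 in FS against EpiSC_AFX. The share of calls that were higher in FS than in ES moved from 52.4% to 70.5%. No paired analysis was possible because replicate numbers follow accession order and tie no libraries together. The Dppa genes outside ES rest on 0 to 27 counts a library, which limits any comparison among those media.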
